A study of Mus musculus with 2 samples.

Results

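The spots described here are the 144 positions of 2 Visium arrays with the strongest choroid plexus signal. In each section, spots under tissue with at least 1000 UMIs (unique molecular identifiers, 1 for each captured probe molecule) were ranked by the summed Ttr, Folr1 and Clic6 level in CPM (UMIs per 1000000 UMIs of the spot), and the top 2% were taken: 65 of 3270 spots in section 1 and 79 of 3967 in section 2, out of 7423 spots under tissue in all. They were compared with the neural spots of the same section, the 2126 and 2586 other spots with Snap25 of at least 500 CPM. The study placed mouse mammary tumor organoids in the cerebellum of C57BL/6J mice to model breast cancer brain metastasis. The organoids had the genotype HP, a human HER2 transgene with the V777L mutation and a PIK3CA allele with H1047R, and were injected stereotactically into 5-month-old mice that received no treatment. Section 1 is labelled HP-F1 +cre and section 2 HP-B6 +cre, and each is 1 formalin-fixed cerebellum section profiled with the mouse transcriptome probe set, so that organoid label and mouse cannot be told apart. A spot is a small disc of tissue that can hold several cells, and fewer choroid cells in a spot cannot be told apart from less RNA per cell.

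The choroid plexus is a folded sheet of epithelium over a fenestrated, collagen-rich stroma that hangs into the brain ventricles, in the hindbrain into the fourth ventricle beside the cerebellum. Its epithelial cells secrete cerebrospinal fluid by moving ions and water from blood to ventricle, supply the brain with folate, thyroid hormone carriers and growth factors, and are joined by tight junctions that form the blood to fluid barrier. They are continuous with the ependyma, the ciliated layer that lines the ventricle wall and whose beating cilia move the fluid.

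The sections differed in how much choroid signal the spots held. The summed Ttr, Folr1 and Clic6 level ran from 2449 to 147819 CPM in section 1, with a median of 10755, and from 5328 to 350226 CPM in section 2, with a median of 172055. The first spot outside the limit was at 2313 CPM in section 1 and at 5281 CPM in section 2, next to the last member in both. These values chose the spots and are a description. Ttr, the gene of the thyroid hormone and retinol carrier transthyretin, made up nearly all of the signal: it took 1.61% of all UMIs of the choroid plexus spots in section 1 and 14.9% in section 2. The spots held 85.0% and 94.5% of all Ttr UMIs of their section. Depth was similar to that of the neural spots, with a median of 7810 UMIs a spot against 7836 in section 1 and 9428 against 10057.5 in section 2. The 2 sections held 63986887 and 71878333 UMIs under tissue and shared 3096 spot barcodes, which are the fixed barcodes of the array.

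**Figure D1:**
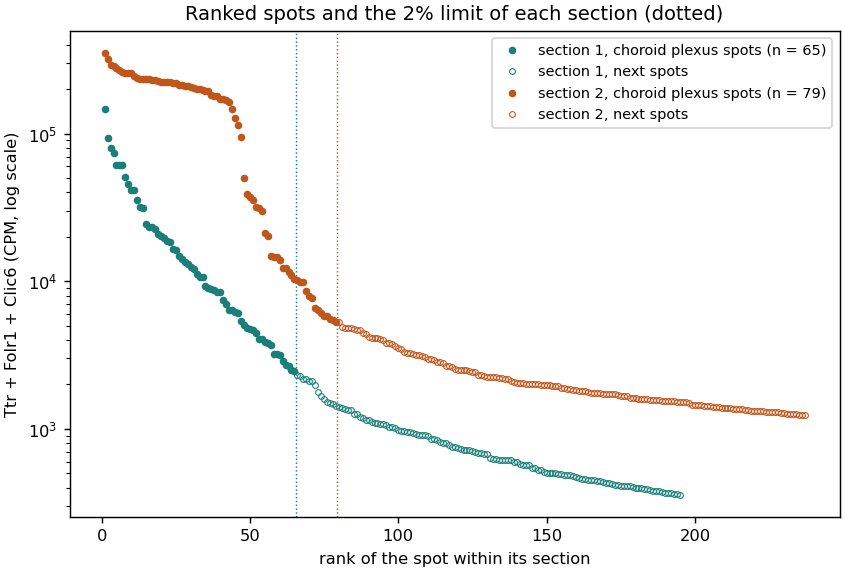
Spots of each section ranked by their summed Ttr, Folr1 and Clic6 level (CPM, log scale), filled for choroid plexus spots and open for the next spots, with the 2% limit of each section dotted. In section 2 a plateau of 46 spots stays at or above 100000 CPM before the level drops, while section 1 has 1 such spot and a gradual slope across the limit.

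The rule did not use position. All 65 spots of section 1 formed 1 connected group, a narrow strip along a gap in the tissue. In section 2, 70 of 79 formed 1 group, and the other spots lay in 4 small groups. Of the neighbors of choroid plexus spots, 80.2% in section 1 (264 of 329 contacts) and 83.5% in section 2 (298 of 357) were choroid plexus spots themselves, where they made up 1.99% of spots. A contact between a pair of members counts once from each side, and contacts within a section are not independent, so no interval is given. When Ttr was left out and spots were ranked by Folr1 and Clic6 alone, this share was 27.8% and 67.9%, and 26 and 61 of the spots were the same, so that in section 1 the connected strip rests mostly on Ttr. The tissue edge was near: 46.2% of the choroid plexus spots of section 1 and 69.6% of those of section 2 lacked tissue under at least 1 of their 6 neighbor positions, against 7.67% and 5.57% of the neural spots. The distance to spots taken as tumor by a single gene in each section was also measured. The median distance was 8 array steps (5 to 11) to a spot with Col1a1 of at least 10000 CPM in section 1, against 23 for neural spots, and 9 steps (0 to 21) to a spot with Epcam of at least 1000 CPM in section 2, against 21. No test was made of these distances. Those tumor limits were chosen after the data were seen, and 1 choroid plexus spot of section 2 was itself above the Epcam limit. Col1a1 is also on the fibroblast list used below, and whether the Col1a1-rich spots of section 1 are tumor was not tested.

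**Figure D2:**
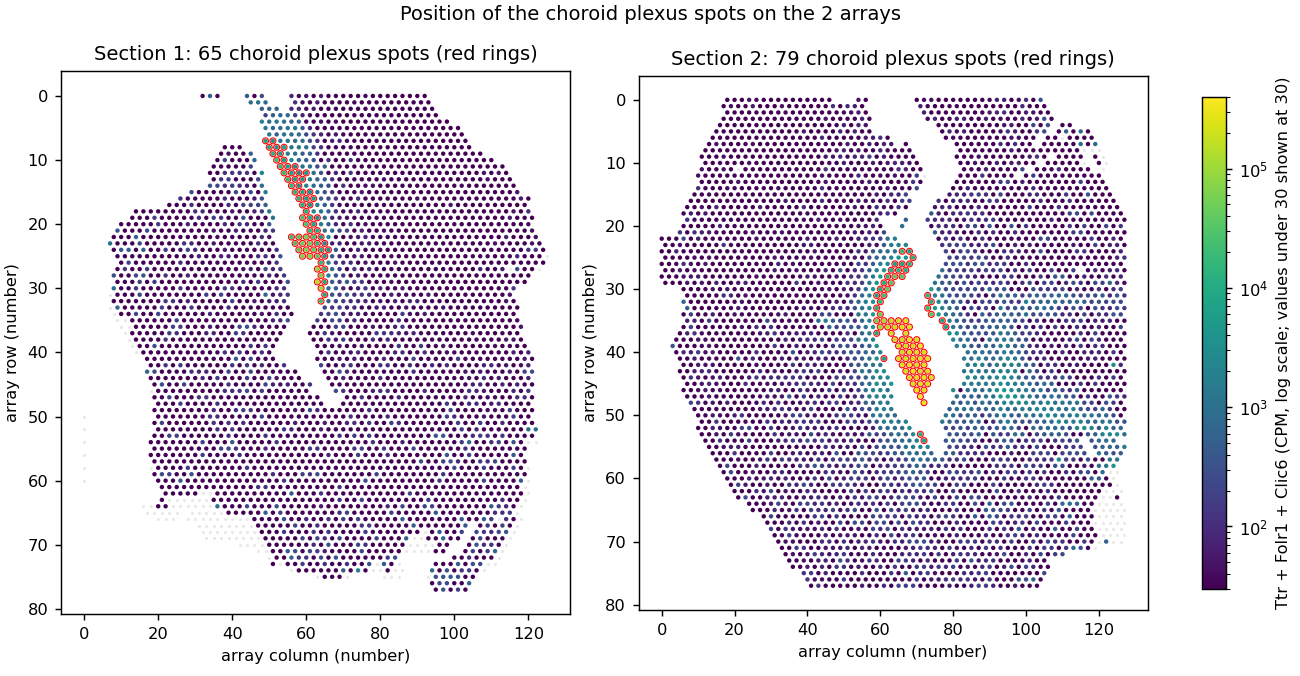
Array positions of all spots of both sections (array row and column numbers), colored by the summed Ttr, Folr1 and Clic6 level (CPM, log scale), with red rings around the choroid plexus spots and spots under 1000 UMIs in grey. In section 1 the 65 spots trace a strip along a tissue gap, and in section 2 a compact island of 46 yellow spots lies in the gap with thinner strips along its walls.

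The plateau in section 2 divided its spots into a dense and a sparse group. The 46 spots at or above 100000 CPM formed 1 connected island, and the other 33 lay in 5 groups, the largest of 24 spots. The limit of 100000 CPM was chosen after the data were seen. Neural and glial genes were low in the dense spots: Snap25, a synaptic vesicle fusion gene, was at 44.7 CPM against 335 CPM in the 33 sparse spots of section 2 and 1069 CPM in the 64 sparse spots of section 1. Gfap, the astrocyte filament gene, was at 246 CPM in the dense spots against 4286 and 5536 CPM in the sparse spots of sections 2 and 1. Of the choroid plexus spots, 53 of 65 in section 1 and 7 of 79 in section 2 would themselves have passed the Snap25 limit of the neural spots.

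The choroid label was checked against the marker genes that the rule did not use. Of 34 such markers on the panel, 30 were more than 1 log2 unit higher in the choroid plexus spots than in the neural spots in each section, beside 3.46% of all 18654 genes tested (646 genes). Of all genes, 6.45% were as far below the neural spots in each section and 1.84% went opposite ways by that much. The median log2 difference of the 34 markers was 2.68 in section 1 and 5.92 in section 2, beside -0.11 for all genes in the fit over both sections. Because the spots were chosen by genes of the same epithelium, this is a check of the label and not an independent finding. In section 1 the 20 genes listed for ependyma and cilia had a median of 2.90, so the check does not tell choroid from ependyma there. Levels from here on are scaled CPM, the UMIs summed per section and class, per 1000000, after edgeR's TMM scaling, except where plain CPM is written. Enpp2, whose product autotaxin is secreted into the fluid, reached 1663 scaled CPM in section 1 and 18115 in section 2, with 224 and 192 in the neural spots. Kl, the gene of the klotho hormone co-receptor, was at 59.7 and 847 against 3.06 and 2.65. Both genes were above their neural level in each section, and section 2 was far above section 1: the median ratio of section 2 to section 1 over the 34 markers was 7.85.

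Genes were then tested across both sections. The summed UMIs of the choroid plexus spots were set against those of the neural spots of the same section with edgeR's quasi-likelihood test, blocked by section, and p-values were adjusted by Benjamini-Hochberg; a gene was counted as changed at an adjusted p below 0.05 and a log2 difference beyond 1. With 2 sections, 1 residual degree of freedom was left for each gene. edgeR drew each gene's spread toward that shared over genes, with median prior degrees of freedom of 6.11. The p-values thus rest largely on the shared spread and cover no mice beyond these 2 sections. Of 18654 genes, 108 changed (0.579%), of which 107 were higher in the choroid plexus spots (0.574%) and 1 was lower (0.00536%), with the smallest adjusted p at 0.0251 and 2462 genes at an unadjusted p below 0.05. Ttr is among the 107, which leaves 106 that did not choose the spots. When the remaining spots of each section entered the fit as a class of their own, 0 genes passed, with the smallest adjusted p at 0.292 and 2020 genes at an unadjusted p below 0.05, although all 107 higher genes kept their direction. DESeq2 on the same sums called 414 genes, which include all 108.

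Genes of motile cilia were higher in the choroid plexus spots. Of the 20 genes listed for ependyma and cilia, 14 were higher in the choroid plexus spots, beside 0.574% of all genes. The list had a median log2 difference of 3.38, with section medians of 2.90 and 3.39. Its median ratio of section 2 to section 1 was 1.11. Of the 106 changed genes 21 were on any list, 14 of them on this one. Their ratio of section 2 to section 1 ran from 0.307 to 29.4 with a median of 1.10. Since a gene passes more readily where its differences are alike in the 2 blocked sections, that closeness is in part set by the test. Ccdc153, a marker of ependymal cells, was at 182 and 70.8 scaled CPM in the choroid plexus spots of sections 1 and 2, against 9.97 and 2.68 in the neural spots (log2 difference 4.44, SE 0.34, edgeR adjusted p = 0.0251). Foxj1, the transcription factor that drives the motile cilia program, was at 140 and 185 against 20.0 and 22.1 (2.94, SE 0.32, edgeR adjusted p = 0.0260). Both genes stood clear of the neural level in both sections, though Ccdc153 was higher in section 1 and Foxj1 in section 2. Tmem212, another ependymal marker, was at 168 and 86.7 against 14.5 and 7.08, and Dynlrb2, a dynein light chain, at 69.3 and 57.8 against 5.83 and 2.58. Rsph1, a radial spoke protein, was at 80.6 and 162 against 11.01 and 6.83. The ciliary axoneme and assembly genes Cfap43, Cfap44, Cfap126, Dnah12, Ak7, Tekt1, Pifo and Fam183b changed too, as did Mia, with log2 differences from 2.62 for Mia to 5.33 for Pifo. Hydin, Spag17, Rarres2, Tm4sf1, Deup1 and Tppp3 did not pass, Tppp3 being at 347 and 181 against 252 and 210. Ccdc153 and Fam183b lost the call without the block and with the top 1% or the top 5% of spots, and Tmem212 with the top 1%. Foxj1, Rsph1 and Mia each lost it under 2 alternatives, among them the fit with the remaining spots as a class. Dynlrb2, Ak7, Cfap44, Cfap126 and Pifo lost it with that fit only.

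Symbols of the Cfap family (cilia and flagella associated proteins), a group named after the data were seen, made up 12 of the higher genes out of 33 tested (36.4%, beside 0.574% of all genes). Likewise grouped after the fact, axonemal dynein genes were 4 of 18, tektins (Tekt) 1 of 5, Lrrc genes 4 of 64 and Ccdc genes 6 of 133. The fixed rule for genes outside the lists named 7 higher genes. They were Cfap65 (114 and 152 against 11.4 and 4.47 scaled CPM), Cfap54 (127 and 86.7 against 16.4 and 8.52), Ccdc162, 2410004P03Rik, 1700007K13Rik, Gm19935 and Hspb6, a small heat shock protein (110 and 215 against 29.8 and 40.7). Hspb6 stood at the threshold (edgeR adjusted p = 0.04996) and lost the call under 8 alternatives. The 1 lower gene was Glra1, a glycine receptor subunit, at 16.1 and 7.23 against 103 and 45.0. It is a neuronal gene, and the neural spots were chosen by a neuronal gene.

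The promoters of these genes were searched for the X-box, the site of the RFX factors that work with Foxj1 in ciliated cells. The letters GTTNCC, any 3 bases and then GNAAC were searched on both strands in the 250 bases before each gene's start (RefSeq, GRCm38.p6). They were found for 3 of the 16 list genes counted (18.8%), for 4 of 84 of the changed genes counted (4.76%), and for 212 of the 27025 genes counted (0.784%). Genes without an entry, and genes of a chromosome that was left out, are not in these counts. The 4 matches among changed genes are printed 5′ to 3′ on the gene's strand with the match in capitals. Those of Cfap44 and Cfap45 fit the letters when read on the opposite strand. Coordinates are those of the printed stretch, and distances those of the match. The search fixed most of the letters that they share, and a match describes letters only.
Cfap44 (chr16:44394764-44394793, plus strand, starting 27 bases before the start): ggagggacGTTGCTATGGCAACcgcagtaa
Cfap45 (chr1:172521103-172521129, plus strand, 19 bases before): gttcttggGTTGCTATGGTAACgcgtc
Pifo (chr3:106001498-106001525, minus strand, 20 bases before): gcggttccGTTCCCTTGGCAACgtagta
Spag16 (chr1:69826859-69826888, plus strand, 103 bases before): ggcaacgcGTTGCCGTAGTAACtgcggacg
In 3 of the 4 the match lies within 30 bases of the start. The letters TAATCC, bound by Otx2 and its relatives, were found for 4 of 30 choroid marker genes counted (13.3%) beside 7.21% of all genes counted.

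**Figure D3:**
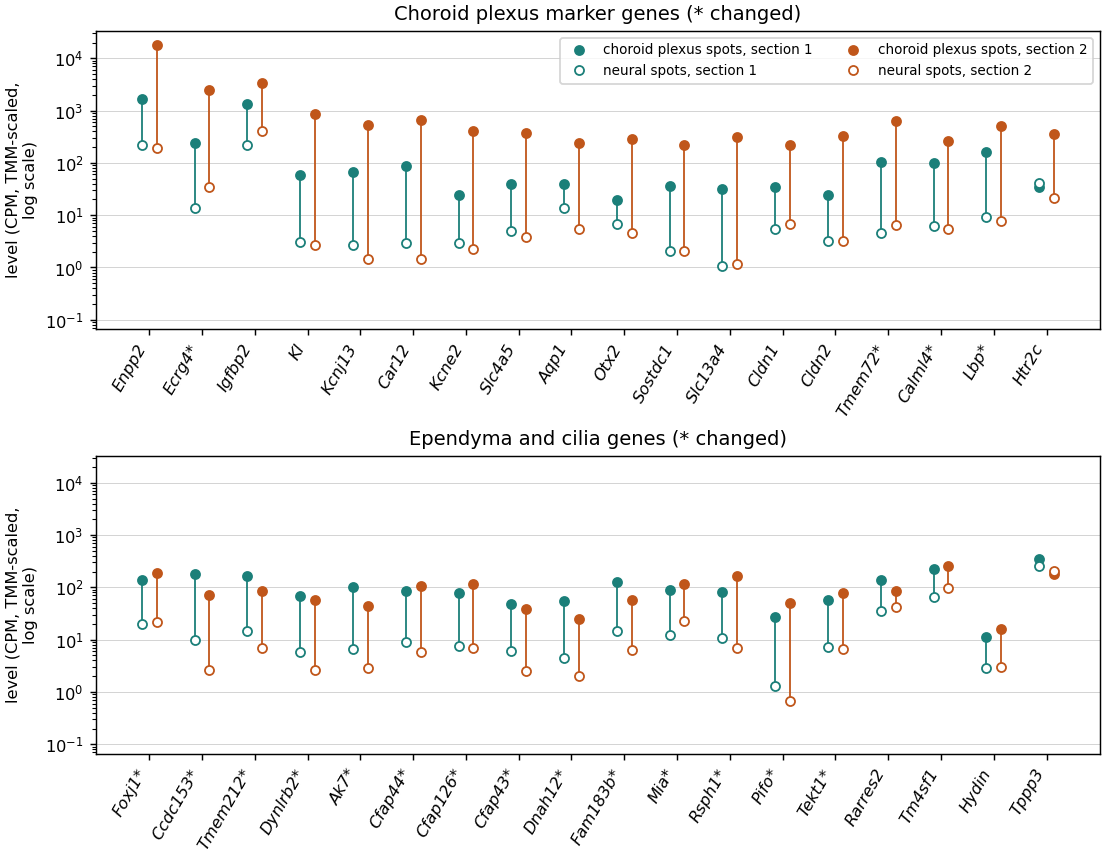
Levels (scaled CPM, log scale) of choroid plexus marker genes and of ependyma and cilia genes in choroid plexus spots (filled) and neural spots (open) of both sections, a line joining the 2 classes of a section and a star marking genes counted as changed. Marker genes such as Kl (59.7 and 847) are far apart between the sections, while cilia genes such as Foxj1 (140 and 185) are close.

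Choroid epithelial genes differed more in size and mostly missed the test. Of the 34 markers, 4 were higher beside 0.574% of all genes, and 30 did not pass (median log2 difference 4.54). The 4 were Calml4, a calmodulin-like protein (102 and 267 against 6.16 and 5.46 scaled CPM, log2 difference 4.85), Tmem72 (103 and 625 against 4.61 and 6.57, 5.57), the secreted peptide gene Ecrg4 (245 and 2458 against 13.97 and 33.98, 5.17) and Lbp, the lipopolysaccharide binding protein (158 and 502 against 9.41 and 7.72, 5.06), with edgeR adjusted p from 0.0260 to 0.0380. With the top 5% of spots none of the 4 passed, and without the block Ecrg4 and Tmem72 did not. Larger differences did not pass where the sections were far apart, as for Kl (log2 difference 6.40, SE 1.18, edgeR adjusted p = 0.131) and Enpp2 (4.73, SE 1.15, edgeR adjusted p = 0.197).

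Among the secreted factors, 1 of 23 changed, Ecrg4, beside 0.579% of all genes. Igfbp2, which binds insulin-like growth factors and is made by choroid epithelium, was at 1353 and 3339 scaled CPM against 223 and 413. Igf2 was at 82.2 and 465 against 18.7 and 12.8, and Sostdc1, an inhibitor of BMP and Wnt signals, at 35.5 and 217 against 2.07 in both sections (edgeR adjusted p = 0.0548). None of the 3 passed, and all of them were higher in both sections. Ion and water transport had 0 of 25 genes changed, with a median log2 difference of 1.51. Of the 25, 8 were more than 1 log2 unit higher in each section, beside 3.46% of all genes. Kcnj13, a potassium channel of the apical membrane, was at 67.7 and 529 against 2.63 and 1.47, and Car12, a carbonic anhydrase, at 85.5 and 661 against 2.92 and 1.44. Slc4a5, a bicarbonate cotransporter, was at 38.7 and 374 against 4.89 and 3.77, and the water channel Aqp1 at 40.3 and 236 against 13.5 and 5.52.

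Nutrient and hormone transport had 1 of 32 genes changed, Slc16a8, a monocarboxylate carrier (19.4 and 52.0 against 2.68 and 3.16 scaled CPM). The counts of changed genes in this and the next lists stand beside 0.579% of all genes, and those of higher genes beside 0.574%. The sulfate carrier Slc13a4 was at 32.3 and 308 against 1.08 and 1.18 and did not pass (edgeR adjusted p = 0.0548). Receptors had 0 of 18 changed. The serotonin receptor gene Htr2c, abundant in choroid epithelium, was at 33.9 in section 1 against a neural 42.0, and at 350 in section 2 against 21.0. In section 1 it had 21 UMIs where the neural level would give 27.4, a difference that counting error covers. Of the junction genes 0 of 17 changed. Cldn1 (33.9 and 223 against 5.36 and 6.64) and Cldn2 (24.2 and 328 against 3.15 and 3.25), claudins of the choroid barrier, and Ezr (247 and 1197 against 42.0 and 52.7), which anchors the microvilli, were higher in both sections without passing. Of 13 regulators, 3 were higher: Foxj1, Gmnc, the switch gene of multiciliated cells (9.68 and 98.3 against 0.376 and 0.351, on 6 and 68 UMIs), and Bmp6 (102 and 166 against 16.2 and 12.2). Gmnc lost the call under 6 alternatives, among them the top 5% of spots and the fit without the block. Otx2, which specifies choroid plexus, was at 19.4 and 288 against 6.68 and 4.47 and did not pass.

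Levels were also taken in the dense and sparse spots apart. In plain CPM, Enpp2 was at 1551 in the 64 sparse spots of section 1, 1337 in the 33 sparse spots of section 2 and 22636 in the 46 dense spots. Kl was at 52.8, 53.5 and 1063 CPM in the same order, and Ttr at 14120, 16608 and 218237. The limit was set on the level that chose the spots, so that likeness of the sparse groups, and distance of the dense one, in genes of this epithelium follows in part from the split. The cilia genes ran the other way for the ependymal markers: Ccdc153 was at 192, 153 and 11.2 CPM, Tmem212 at 175, 200 and 7.45 CPM, and Fam183b at 131, 132 and 5.59 CPM. Dnah12 (57.9, 60.6 and 0 CPM), Ak7 (106, 67.7 and 20.5 CPM) and Cfap43 (49.4, 53.5 and 22.3 CPM) were lower in the dense spots too. Some cilia genes were not low there. Foxj1 was at 148, 214 and 127 CPM, Rsph1 at 81.7, 89.1 and 162 CPM, Cfap126 at 78.3, 92.7 and 102 CPM, and Gmnc was highest in the dense spots at 8.52, 14.3 and 119 CPM. The list of 20 summed to 2139, 2521 and 955 CPM, beside 539 and 468 CPM in the neural spots of sections 1 and 2.

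**Figure D4:**
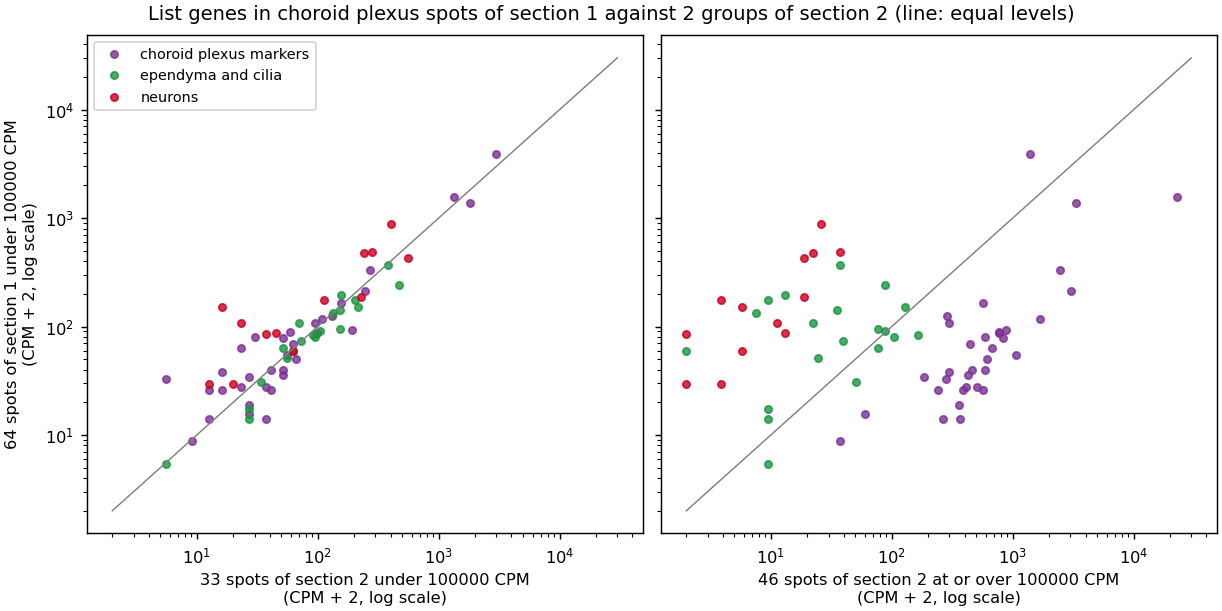
Levels (CPM + 2, log scales) of choroid marker, ependyma and cilia, and neuron list genes in the 64 choroid plexus spots of section 1 under 100000 CPM (vertical axes), against the 33 such spots of section 2 (left, horizontal) and the 46 spots of section 2 at or above that limit (right, horizontal), with the line of equal levels. Choroid markers scatter about the line on the left (Kl at 52.8 and 53.5 CPM), while on the right all but 1 of them lie below it, on the section 2 side, and the neuron genes lie above it.

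The sparse spots were also tested alone, an alternative added after the data were seen. It leaves out spots by the level that chose them, at a limit where the sections were seen to differ, which makes the sections more alike in choroid signal, and its calls of choroid genes are a description. With spots at or above 100000 CPM left out of both sections, 731 of 18542 genes were higher (3.94%) and 588 lower (3.17%), and 104 of the 107 genes first called higher stayed so. Of the 34 choroid markers 26 were higher (median log2 difference 2.45) and of the 20 ependyma and cilia genes 18 (median 3.27). Kl had a log2 difference of 4.08 (SE 0.44), Car12 of 4.75 (SE 0.43), Kcnj13 of 4.21 (SE 0.51), Enpp2 of 2.67 (SE 0.32) and Igfbp2 of 2.26 (SE 0.32). Otx2 passed at 1.70 (SE 0.57, edgeR adjusted p = 0.0413), on 10 and 7 UMIs in the sparse spots of sections 1 and 2. Aqp1 (1.29, edgeR adjusted p = 0.0678), Prlr and Htr2c did not pass. In this fit the median prior degrees of freedom were infinite, so that most genes took the spread shared by all genes. Their p-values are smaller than a gene's own 2 sections would give.

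The choroid genes were next set against Ttr. Ttr made up most of the signal that chose the spots, so these ratios are a description. The UMIs of the choroid plexus spots above the neural level were divided by those of Ttr, which was 9.24 times higher in section 2 in plain CPM. Enpp2 had 92.4 such UMIs per 1000 Ttr UMIs in section 1 (95% exact Poisson interval 85.9 to 99.2) and 102 in section 2 (99.8 to 103). Kl had 3.66 (2.51 to 5.12) and 4.80 (4.41 to 5.202), and Kcnj13 had 4.21 (2.98 to 5.75) and 2.997 (2.70 to 3.32). The intervals cover counting error only, and UMIs of neighboring spots are not independent. Of 30 markers with at least 100 such UMIs in section 2, 17 had section 1 counts whose interval held the count set by the Ttr ratio, 9 had more and 4 fewer. Calml4 was 3.46 times its count at that ratio in section 1 (2.66 to 4.43), Lbp 2.98 times (2.42 to 3.63) and Igfbp2 2.80 times (2.61 to 2.99), and Foxj1, a cilia gene, 4.01 times (3.21 to 4.95). Abca4 was at 0.361 times (0.145 to 0.744) and Htr2c at 0.466 (0.289 to 0.712).

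Only list genes with at least 100 UMIs above the neural level in section 2 were compared in this way. That can leave out genes high mainly in section 1. Of the genes compared, Slc6a20a, a proline transporter gene on the leptomeninges list, departed furthest. It had 6 UMIs in the choroid plexus spots of section 1, where the Ttr ratio would give 52.8 (0.114 times, 0.0417 to 0.247), and 567 UMIs in section 2. Its level was 9.68 scaled CPM in section 1, below the neural 13.97, and 820 in section 2 against 14.1. In section 2 it lay with the dense spots, at 1002 CPM against 103 CPM in the sparse ones. The Wnt inhibitor Sfrp1 behaved alike, at 16.1 against a neural 17.4 in section 1 and 270 against 13.7 in section 2. Of the 14 leptomeninges genes 1 changed, Bmp6, beside 0.579% of all genes. Ptgds, the most abundant of the 14, was at 335 against 443 in section 1 and 1000 against 238 in section 2. The leptomeningeal markers Aldh1a2, Slc6a13 and Slc22a6 were at 22.6, 3.23 and 11.3 scaled CPM in section 1. In section 2 they were at 7.23, 0 and 2.89 scaled CPM, where 0 UMIs allow up to 3.67 in plain CPM. Their neural levels in plain CPM were 9.69, 4.28 and 5.31 in section 1 and 11.1, 4.53 and 4.79 in section 2.

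Stromal and immune markers differed between the sections, in the neural spots as well as in the choroid plexus spots. In section 2 the 12 fibroblast genes summed to 1240 scaled CPM against 425 in the neural spots, and in section 1 to 1592 against 1426. The collagen gene Col1a2 was at 473 CPM in the dense spots of section 2 against 50.7 CPM in its neural spots. Not all of the list did so: Fn1 was at 143 CPM in the dense spots, below the neural 251, and at 845 in the sparse ones. In plain CPM the 12 genes summed to 925 in the dense spots of section 2, 1287 in its sparse spots and 440 in its neural spots. The 7 MHC class II genes summed to 460 scaled CPM against 174 in section 2 and to 901 against 690 in section 1. For both lists the neural level was lower in section 2, and the choroid plexus spots themselves were higher in section 1. The 7 fenestrated endothelium genes summed to 700 scaled CPM against 467 in section 2 and to 797 against 384 in section 1. In plain CPM the 7 genes summed to 318 in the dense spots of section 2, below the neural 484, and to 1116 in its sparse spots. Plvap, the diaphragm protein of fenestrated capillaries, was at 12.9 and 57.8 scaled CPM against 3.06 and 2.999, on 8 and 40 UMIs. Unlike the sum of its list, it was higher in the dense spots of section 2, at 72.6 CPM, than in the sparse ones. None of the 7 fenestrated endothelium, 12 fibroblast, 11 border macrophage, 7 MHC class II, 10 lymphoid and 7 neutrophil genes passed the test, which called 0.574% of all genes higher and which most choroid markers missed too. The 11 border macrophage genes summed to 286 and 435 CPM in the sparse spots of sections 1 and 2, against 233 and 280 in the neural spots. Mrc1, which marks macrophages of the brain borders, went the other way between the sections. It was at 20.4 CPM in the sparse spots of section 1 and 7.13 in those of section 2, on 12 and 2 UMIs. Its neural levels were 9.95 and 17.2 CPM.

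Inflammation genes were also measured. Of 26 acute phase and inflammation genes, 1 changed, Lbp, beside 0.579% of all genes, and the median log2 difference of the 26 was 0.65. C3, the central complement component, was at 377 and 642 scaled CPM against 58.7 and 123 (log2 difference 2.54, edgeR adjusted p = 0.0513). Lcn2, the siderophore binding protein lipocalin 2, was at 1556 and 1603 against 280 and 708, and Serpina3n, a serine protease inhibitor of reactive glia, at 2017 and 1417 against 353 and 652; neither passed. In plain CPM, Lcn2 was at 1643 and 3590 in the sparse spots of sections 1 and 2 and at 190 in the dense spots, below the neural 733 of that section. Lcn2 turned to a lower level than in the neural spots when the top 1% of spots were taken (log2 difference -1.21) and when Folr1 and Clic6 alone chose the spots (-0.78). In the fit on the sparse spots, 11 of 26 of these genes, 9 of 17 interferon response genes and 6 of 10 microglia genes were higher, beside 3.94% of all genes. With all the choroid plexus spots these counts were 1, 0 and 0. Microglia genes summed to 1357 and 1908 CPM in the sparse spots of sections 1 and 2 and to 203 in the dense spots, against 708 and 865 in the neural spots.

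Tumor epithelium genes differed between the sections. Their list does not hold Col1a1, which was used to mark tumor in section 1 above. Col1a1 was at 584 CPM in the sparse spots of section 1 against 535 in its neural spots, so low sums of this list do not show that tumor RNA was absent there. The 13 tumor epithelium genes summed to 18.7 CPM in the sparse spots of section 1, to 1690 in the sparse and 346 in the dense spots of section 2, against 39.9 and 413 in the neural spots. Krt7, Krt14, Krt5 and Epcam were at 0 in the sparse spots of section 1 and at 396, 292, 96.3 and 225 CPM in those of section 2. In the fit on sparse spots 7 of the 13 were called higher, beside 3.94% of all genes, and with all the choroid plexus spots 0 of 13. Krt7, Krt14, Krt5, Krt17, Cldn7 and Epcam are among the 7, and with 0 UMIs in the sparse spots of section 1 their calls rest on section 2 alone. The part of tumor, glial and neural RNA in the levels of the choroid plexus spots was not tested.

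Levels fell away from the choroid plexus spots at different rates. In plain CPM, Ttr went from 16127 in the spots themselves to 1052 at 1 array step, 411 at 2 and 323 at 3 in section 1, and from 149060 to 2717, 1163 and 640 in section 2. Enpp2 went from 1729 to 332 in 1 step in section 1 and from 15329 to 401 in section 2. Igfbp2 sloped more slowly, from 1407 to 1019, 810 and 552 CPM in section 1 and from 2826 to 2163, 1925 and 1788 in section 2. Foxj1 went from 146 to 43.2 in 1 step in section 1 and from 157 to 123 in section 2. Otx2 did not fall over the first steps in section 1, at 20.1, 21.6 and 19.8 CPM at 0, 1 and 2 steps. In section 2 Otx2 went from 243 to 11.8 in 1 step. The ependyma and cilia list went from 2128 to 914 CPM in section 1 and did not go down in section 2, from 1492 to 1604, before 1373 and 1034. Snap25 was at 1065 and 1225 CPM at 0 and 1 step in section 1 and at 144 and 726 in section 2. The rule set the first point of the Ttr profile, and no test was made over spots.

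**Figure D5:**
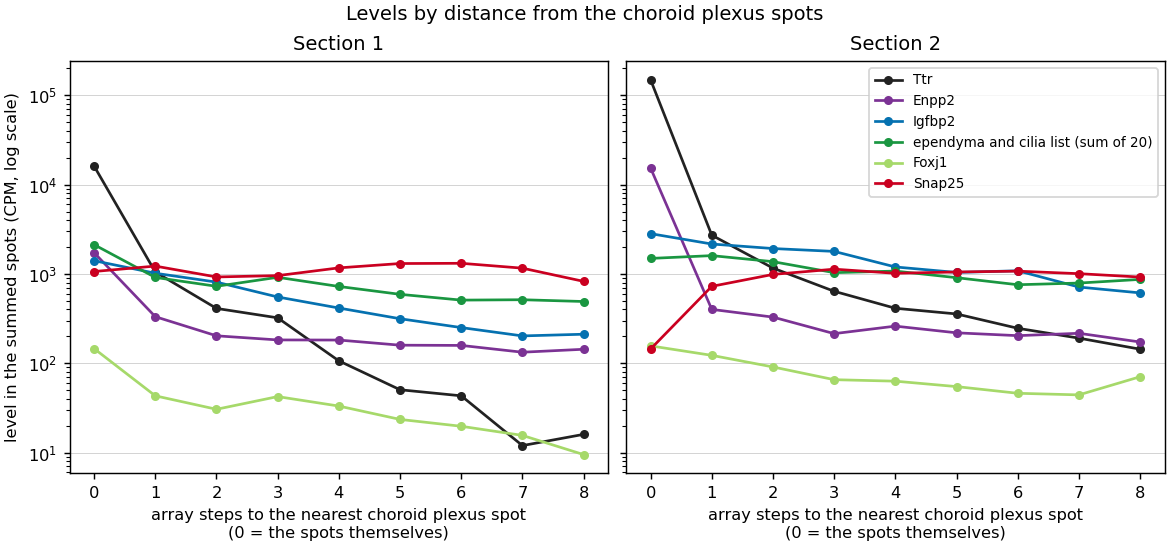
Levels (CPM, log scale) in spots summed by array steps to the nearest choroid plexus spot, 0 being the spots themselves, in each section. Ttr and Enpp2 drop within 1 step (Ttr from 16127 to 1052 CPM in section 1 and from 149060 to 2717 in section 2), Igfbp2 slopes over several steps, and Snap25 is low at 0 steps only in section 2 (144 CPM).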

How the data were processed

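The 2 formalin-fixed mouse cerebellum sections, 1 from each of 2 mice, were profiled with Visium CytAssist. Per the labels, the authors processed reads with Space Ranger 2.1.1 against mm10 and deposited UMI counts per gene and spot, not normalized, with spot positions. Members and gene lists were chosen with earlier results of these data known.

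Spots with under 1000 UMIs were left out. Counts were summed per section and class, filtered with filterByExpr, scaled by TMM and tested with edgeR 4.0.16 (glmQLFit, robust) in R 4.3.3, with the section as a block, since both classes of a section come from 1 mouse. edgeR's common dispersion came to 0.0849 in the blocked fit and to 0.0789 in the unblocked one. Log2 differences per section were taken after adding 0.5 CPM. Genes could be named from the lists or, beyond them, as the 10 largest changes in each direction with over 1 log2 unit in each section and at least 50 UMIs in the higher class of each section. DESeq2 1.42.0 was an alternative. The script was tested on simulated data. Sums of the choroid plexus spots held 596324 and 817483 UMIs, so that 3 UMIs, the most a count of 0 allows, equal 5.03 and 3.67 CPM. Intervals cover counting error only.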

Additional observations from a re-analysis of the deposited data

How the results depend on the processing

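The count of changed genes (108, 107 higher and 1 lower) depended on how spots were chosen and on the test. It was 187 (166 and 21) with the top 1% of spots, 190 (167 and 23) with the top 5%, 213 (198 and 15) with at least 2000 UMIs, 282 (197 and 85) against all other spots, 343 (276 and 67) with Folr1 and Clic6 alone as the choice, 414 (352 and 62) by DESeq2, and 0 (0 and 0) with the remaining spots as a further class in the fit; of the 108, these shared 83, 73, 108, 91, 106, 108 and 0. With members below 100000 CPM, added after the data were seen, it was 1319 (731 and 588), 105 of them shared. Without the replicate block 140 genes changed, 90 of them shared. The other lower counts were 3 with at least 500 UMIs, 4 for members touching another member, 4 without a filter on low counts, 2 with scaling by library size alone and 3 without the replicate block.

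The share of neighbors that are members moved to 64.7% and 95.5% with the top 1% (sections 1 and 2), to 75.0% and 68.8% with the top 5%, and to 27.8% and 67.9% without Ttr in the choice. Of the genes named here, 46 were followed through the alternatives, 26 of them called, and the others were not. Among the 46, Lcn2 alone changed sign, to -1.21 with the top 1% and to -0.78 without Ttr in the choice. The calls of all 26 were lost with the further class, 12 with the top 5% and 7 without the replicate block, Ccdc153, Ecrg4, Tmem72 and Glra1 among both of the last. Each section alone kept the sign of all 26, while Htr2c (-0.31) and Slc6a20a (-0.51), which were not called, were below 0 in section 1 alone, and 12 of 92 such values moved by over the spread between sections. Library size as the only scaling moved the median of all genes from -0.11 to -0.29. The cause of these moves was not tested. Depth limits the section 1 values: several choroid genes rest on under 30 UMIs there.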
